A study of Mus musculus with 12 samples.

Results

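The 38 genes described here encode enzymes of glycolysis and genes known to be induced by low oxygen. They were chosen by name, as 14 glycolytic enzymes and 24 other hypoxia-response genes, and each was matched to the probe sets that the platform annotation gives to that gene alone. Of the 38 genes 36 were measured, among 18193 genes in all: 12 of the 14 enzymes and all 24 others, on 77 probe sets. Gpi1 and Eno1 are not analysed here.

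Expression was measured on 12 Affymetrix mouse arrays, each with RNA from a C4-HD tumour, a progestin-dependent mammary carcinoma transplanted in BALB/c mice. All tumours were grown in mice that carried medroxyprogesterone acetate (MPA), a progestin. For treatment, the MPA pellet was taken out at a tumour size of 50 mm2 and a pellet of mifepristone (MFP), an antagonist of the progesterone receptor, was placed under the skin at 10 mg/kg/day. The groups were MFP for 6, 12, 24 and 48 h, tumours labelled no MPA and given saline for 48 h, and tumours growing with MPA, with 2 arrays each. No allele or transgene is named for any group. The treatment protocol also speaks of saline-treated tumours with MPA as controls, so that the state of the no MPA tumours rests on their group label. The design text lists the 12, 24 and 48 h times and not 6 h. It calls the replicates independent without saying whether they came from separate animals, so the p-values below measure the spread between these samples. By the labels, an MFP tumour differs from an MPA tumour in 2 ways, the added MFP and the missing MPA. From a no MPA tumour of the same time it differs, again by the labels, in the MFP pellet given in place of saline.

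In glycolysis, glucose is taken up by facilitative transporters, phosphorylated by hexokinases and cleaved to pyruvate, which lactate dehydrogenase turns into lactate. When oxygen is low, the alpha subunits of the hypoxia-inducible factors (HIF) escape hydroxylation by the Egln enzymes and the degradation through Vhl that follows, pair with Arnt and bind a short core motif in their target genes. The targets include most glycolytic enzymes, glucose and lactate transporters, carbonic anhydrases, angiogenic factors and regulators of mitochondria, and many carcinomas express them strongly.

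Each deposited value is a log2 ratio to the average of the 2 MPA arrays, taken before the log, so 0 stands for the MPA level and levels of different genes cannot be compared. Whether a gene was above background is unknown, and the number of arrays limits the precision. The tissue label could not be checked on levels for the same reason. Each gene was represented by its most variable probe set (highest SD across 12 arrays), differences were tested with limma over all 18193 genes, and a gene was called at a Benjamini-Hochberg adjusted p under 0.05. All differences and slopes below are on the log2 scale with their SE. In bulk tumour RNA, fewer cells of a type and less RNA per cell cannot be told apart.

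The MPA arrays differed from each other over these genes. Array 1 lay below array 2 in 32 of the 36 genes, against 48.6% of all genes, and the median of the 36 was -0.27 in array 1 and 0.23 in array 2. Every comparison with MPA shares these arrays, while the trend over the MFP times uses none of them. Marker genes of other cells also moved. In MFP 48 h tumours versus MPA tumours 12 of 14 macrophage markers, 11 of 14 fibroblast markers, 5 of 9 neutrophil markers and 8 of 11 markers of exocrine pancreas rose, and 9 of 14 mitotic genes fell. Of 12 luminal epithelial markers 4 fell and 1 rose, and of 12 endothelial markers 4 rose and 1 fell. Among all genes 6.47% rose and 6.02% fell. None of 14 hepatocyte, 7 adipocyte or 15 skeletal muscle markers was called at 48 h, but the median of the muscle markers was 4.34 in MFP 48 h array 1 and 0.12 in array 2. The part of these cells in the results below was not tested.

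**Figure D1:**
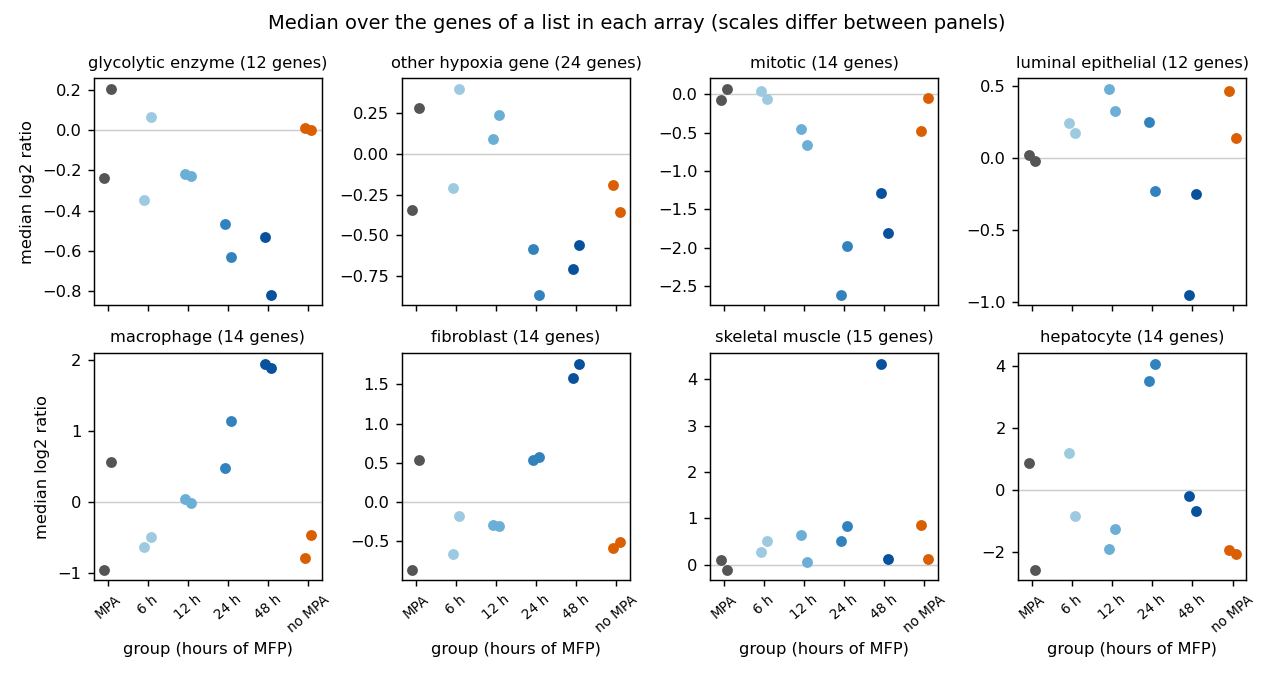
Median log2 ratio to the MPA mean (vertical axis) over the genes of each list in each array (points), by group. The medians of the glycolytic enzymes lie at -0.53 and -0.82 in MFP 48 h arrays, those of the macrophage markers at 1.95 and 1.89, and those of the mitotic genes at -1.29 and -1.81.

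Over the MFP times more of the 36 genes fell than rose, and their medians were lower at 24 and 48 h than at 6 and 12 h. The slope on log2 of the hours was called in 12 of the 36 genes, against 11.2% of all genes. It was negative in 10, against 4.39% of all genes: Pdk1, Ndrg1, Mxi1, Tpi1, Pgk1, Car9, Bnip3, Higd1a, Adm and Pfkl. It was positive in Epas1 and Slc16a3, against 6.8% of all genes. The median slope was -0.23 per doubling of time over the 36 genes and -0.01 over all genes. The array medians of the 36 genes were -0.26 and 0.30 in the 6 h arrays, -0.04 and 0.09 in the 12 h arrays, -0.53 and -0.78 in the 24 h arrays, and -0.66 and -0.73 in the 48 h arrays. The 24 and 48 h arrays thus lay below all 6 and 12 h arrays.

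In MFP 48 h tumours versus MPA tumours 8 of the 36 genes were called, against 12.5% of all genes. Aldoc, Car9, Higd1a, Pdk1, Pfkl, Pgk1 and Tpi1 fell, 7 genes against 6.02% of all genes, and Epas1 rose, against 6.47%. The median difference was -0.62 over the 36 genes and 0.00 over all genes, with 26 genes below 0 and 10 above it. In MFP 24 h tumours 4 genes were called versus MPA, against 8.75% of all genes, so that the share was near the background. Pgk1, Tpi1 and P4ha1 fell, against 4.2% of all genes, and Epas1 rose, against 4.55%. In the same comparison 12 of 14 hepatocyte markers rose, with a median difference of 4.89, and 13 of 14 mitotic genes fell. Their part in the result was not tested. No gene of the 36 was called by limma at 12 h or 6 h. An unadjusted p under 0.05 was found for 3 of the 36 at each time, against 3303 of 18193 genes at 12 h and 2725 at 6 h. Of all genes 4.28% were called at 12 h (1.66% up, 2.62% down) and 1.25% at 6 h (0.313% up, 0.94% down). The early median differences were 0.07 at 12 h and 0.03 at 6 h.

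The calls versus MPA depended on the scaling and on the shared estimate of the spread. After quantile normalization between arrays 0 of the 36 genes and 3 of all genes were called at 48 h versus MPA, none up and 3 down, against 1177 up and 1095 down as deposited. The deposited values are ratios to the average of the MPA arrays, so these arrays are narrow by construction, and quantile normalization stretches them. The loss of these calls cannot be told apart from that stretching. With the spread taken from the 4 arrays of the contrast alone, 0 of the 36 were called, with adjusted p of 0.056 for Pdk1 and 0.0678 for Tpi1. The trend had 13 called genes after quantile normalization, 11 of them among the 12. Leaving out 1 array at a time at 48 h versus MPA, Pdk1 and Tpi1 were called in each of 4 runs, while the count was 4 without MFP 48 h array 1 and 5 without MPA array 2. In the trend Pdk1, Tpi1, Ndrg1 and Mxi1 were called in each of 8 runs, and without MFP 6 h array 2 the count was 6.

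**Figure D2:**
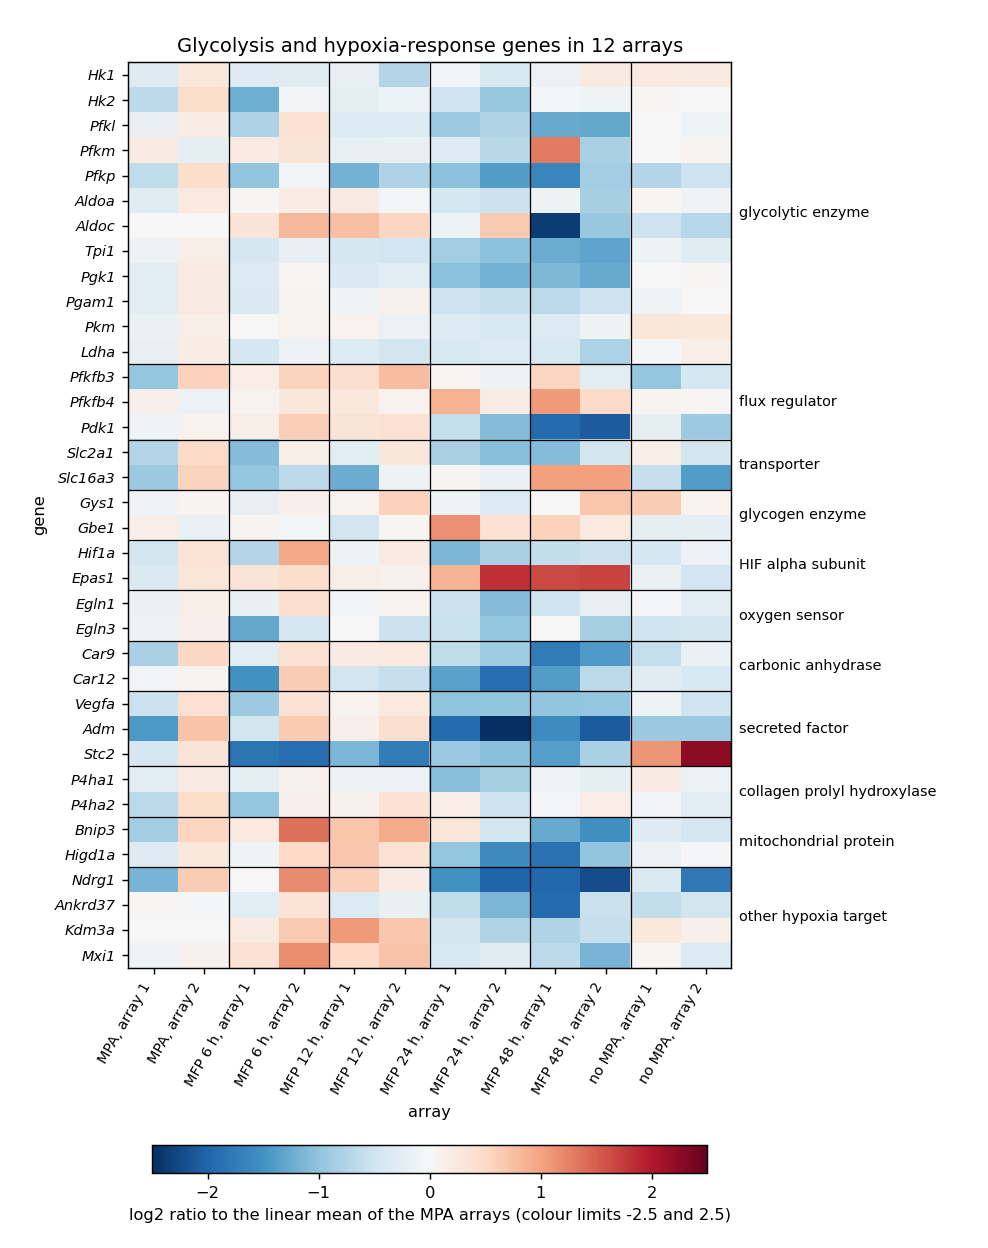
Log2 ratio to the MPA mean (colour, cut at -2.5 and 2.5) of the 36 genes (rows, ordered by role) in the 12 arrays (columns, MPA followed by the MFP times and no MPA). Most rows turn blue from MFP 24 h on, while Epas1 and Slc16a3 are red in both MFP 48 h arrays.

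Enzymes and other hypoxia genes had array medians on opposite sides of 0 at 12 h, and on the same side at 24 and 48 h. The glycolytic enzymes had array medians of -0.35 and 0.06 in the 6 h arrays, -0.22 and -0.23 in the 12 h arrays, -0.47 and -0.63 in the 24 h arrays, and -0.53 and -0.82 in the 48 h arrays. The other hypoxia genes had medians of -0.21 and 0.40 in the 6 h arrays, 0.09 and 0.24 in the 12 h arrays, -0.58 and -0.86 in the 24 h arrays, and -0.70 and -0.56 in the 48 h arrays. At 6 h both had array 1 below 0 and array 2 above it. At 48 h versus MPA 4 of the 12 enzymes fell and none rose, and of the 24 others 3 fell (12.5%) and 1 rose (4.17%), against 6.02% down and 6.47% up among all genes. In the trend 3 enzymes fell, and of the others 7 fell and 2 rose, against 4.39% down and 6.8% up among all genes. The difference between the 2 groups of genes was not tested.

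Promoters are shown for the 5 genes that fell at 48 h versus MPA, at 48 h versus no MPA and in the trend, together with Car9, a textbook HIF target, and Slc16a3, which rose in the trend. Each is the 250 bases before the start site on the gene's strand, from RefSeq on build GRCm38.p6, with capitals for the HIF core, ACGTG or GCGTG on either strand. A capital CACGT is the core ACGTG read on the opposite strand. The intervals are chr2:71872974-71873223 (plus strand) for Pdk1, chrX:106186850-106187099 (plus) for Pgk1, chr6:124814159-124814408 (minus) for Tpi1, chr10:78009808-78010057 (minus) for Pfkl, chr9:121857797-121858046 (minus) for Higd1a, chr4:43506776-43507025 (plus) for Car9 and chr11:120948817-120949066 (plus) for Slc16a3.
Pdk1: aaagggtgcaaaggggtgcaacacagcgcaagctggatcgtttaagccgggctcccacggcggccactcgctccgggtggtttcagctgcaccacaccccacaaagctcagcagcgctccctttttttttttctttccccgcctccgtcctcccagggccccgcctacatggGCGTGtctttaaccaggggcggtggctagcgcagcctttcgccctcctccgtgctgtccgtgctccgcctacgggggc
Pgk1: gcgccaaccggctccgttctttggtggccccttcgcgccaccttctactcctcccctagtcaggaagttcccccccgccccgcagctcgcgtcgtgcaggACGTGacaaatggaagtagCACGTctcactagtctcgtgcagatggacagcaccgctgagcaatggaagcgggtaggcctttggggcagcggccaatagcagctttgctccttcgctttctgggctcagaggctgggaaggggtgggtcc
Tpi1: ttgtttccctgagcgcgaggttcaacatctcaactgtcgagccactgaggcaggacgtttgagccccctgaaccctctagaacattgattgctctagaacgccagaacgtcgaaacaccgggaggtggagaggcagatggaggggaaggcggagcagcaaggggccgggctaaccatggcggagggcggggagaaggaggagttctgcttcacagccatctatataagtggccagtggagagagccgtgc
Pfkl: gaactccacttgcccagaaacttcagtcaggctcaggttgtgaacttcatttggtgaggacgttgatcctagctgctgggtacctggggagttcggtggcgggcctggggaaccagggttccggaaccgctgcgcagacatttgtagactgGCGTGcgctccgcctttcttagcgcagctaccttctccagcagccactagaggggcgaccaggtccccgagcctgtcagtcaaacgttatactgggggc
Higd1a: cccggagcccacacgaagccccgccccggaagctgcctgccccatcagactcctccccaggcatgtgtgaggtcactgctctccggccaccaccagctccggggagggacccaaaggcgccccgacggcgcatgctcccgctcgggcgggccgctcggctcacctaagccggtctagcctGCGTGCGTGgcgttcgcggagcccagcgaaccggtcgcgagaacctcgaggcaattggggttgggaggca
Car9: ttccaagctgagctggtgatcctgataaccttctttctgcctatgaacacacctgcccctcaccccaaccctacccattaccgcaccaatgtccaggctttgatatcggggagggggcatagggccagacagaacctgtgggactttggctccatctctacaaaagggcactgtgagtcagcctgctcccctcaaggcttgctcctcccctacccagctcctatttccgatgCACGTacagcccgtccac
Slc16a3: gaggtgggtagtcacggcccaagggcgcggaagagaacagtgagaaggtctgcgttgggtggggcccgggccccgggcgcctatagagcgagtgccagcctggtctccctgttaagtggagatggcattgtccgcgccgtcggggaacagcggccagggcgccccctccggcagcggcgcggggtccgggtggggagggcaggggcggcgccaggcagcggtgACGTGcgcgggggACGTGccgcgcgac

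Pgk1 and Slc16a3 hold 2 ACGTG cores each, Higd1a 2 GCGTG cores that share a base, Car9 1 ACGTG core, and Pdk1 and Pfkl 1 GCGTG core each. The window of Tpi1 holds neither. The relation of the cores to the direction of change was not tested. None of the 7 windows holds CACGTG, the E-box that contains the core. A further start site of Pdk1 has no core in its window. Of the 38 genes 36 had a promoter in the table, Epas1 and Ndrg1 not among them, and 31 of the 36 held a core in at least 1 promoter, 20 of them ACGTG. Counted by promoter, 74.1% of 54 held a core, against 38.6% of 32851 promoters of all genes, and 44.4% held ACGTG, against 16.6%. The promoters of these genes were richer in G and C, with a median of 60.4% against 52.4%. A match is a description of the letters and not of a bound site.

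Among the glycolytic enzymes, the clearest falls were in the middle of the pathway. Triosephosphate isomerase, Tpi1, stood at -1.25 and -1.32 in MFP 48 h arrays, against -0.12 and -0.30 in no MPA arrays and -0.15 and 0.14 in MPA arrays. At earlier MFP times it stood at -0.42 and -0.21 (6 h), -0.44 and -0.48 (12 h) and -0.87 and -1.02 (24 h). Both 48 h arrays lay below all 10 others. The difference was -1.28 ± 0.19 versus MPA, a 2.42-fold fall (adjusted p = 0.00522), and the slope -0.34 ± 0.06 per doubling of time (adjusted p = 0.00685). All 3 probe sets of Tpi1 lay below 0 at 48 h versus MPA, and 2 of them were called. All 3 also had a slope below 0, and 1 of these slopes was called.

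Phosphoglycerate kinase, Pgk1, which makes the first ATP of the pathway, stood at -1.12 and -1.26 in MFP 48 h arrays, against 0.00 and 0.02 in no MPA arrays and -0.27 and 0.23 in MPA arrays. It stood at -0.34 and 0.06 in the 6 h arrays, -0.36 and -0.28 in the 12 h arrays, and -1.02 and -1.18 in the 24 h arrays. The 24 and 48 h arrays overlapped and lay below all others. The difference at 48 h versus MPA was -1.17 ± 0.23 (adjusted p = 0.0115), and without MFP 48 h array 2 it was -1.09 (adjusted p = 0.0527). Its 3 probe sets were each called there, while in the trend all 3 had a slope below 0 and 2 were called. The slope was -0.39 ± 0.07 (adjusted p = 0.0109), and without MFP 6 h array 2 it was -0.36 (adjusted p = 0.0532).

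The liver-type phosphofructokinase Pfkl, which catalyses the committed step, stood at -1.26 and -1.28 in MFP 48 h arrays, against 0.01 and -0.10 in no MPA arrays and -0.21 and 0.19 in MPA arrays. The values were -0.77 and 0.39 in the 6 h arrays, -0.34 and -0.34 in the 12 h arrays, and -0.91 and -0.76 in the 24 h arrays. Both 48 h arrays were the lowest of the 12, while the 6 h arrays lay far apart. The difference versus MPA was -1.26 ± 0.32 (adjusted p = 0.0319), and it was not called without MPA array 1 (adjusted p = 0.0803), MPA array 2 (0.136), MFP 48 h array 1 (0.107) or MFP 48 h array 2 (0.105), or with array weights (0.0601). The slope of -0.37 ± 0.10 (adjusted p = 0.0477) was called without 1 of the 8 MFP arrays only, MFP 6 h array 1, and without MFP 6 h array 2 it was -0.26 (adjusted p = 0.176). It was also not called after median centring (adjusted p = 0.0536), quantile normalization (0.0939) or with array weights (0.0521). All 3 probe sets lay below 0 at 48 h versus MPA, and 1 of them was called. Their slopes were also below 0, and 2 of these were called. The slope that was not called was -0.05 ± 0.07 (adjusted p = 0.72 over probe sets).

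Aldolase C, Aldoc, an isozyme best known from brain, followed another course. It stood at -2.37 and -0.95 in MFP 48 h arrays, against -0.51 and -0.72 in no MPA arrays and -0.01 and 0.01 in MPA arrays. Before that it stood above 0 at 6 h (0.33 and 0.81) and 12 h (0.75 and 0.54) and at -0.15 and 0.66 in the 24 h arrays. Only the 48 h arrays lay below both MPA arrays and both no MPA arrays, and they differed from each other. The difference of -1.66 ± 0.42 versus MPA (adjusted p = 0.0299) was -0.95 without MFP 48 h array 1 (adjusted p = 0.15), and it was not called without MPA array 1 (0.121) or MPA array 2 (0.0902). The slope was -0.71 ± 0.20 (adjusted p = 0.0541). The other probe set of Aldoc had a smaller difference of -0.66 ± 0.21 and was not called (adjusted p = 0.071 over probe sets).

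Of the other 8 enzymes none was called in any comparison with all arrays on the probe set that stood for the gene. The muscle-type phosphofructokinase Pfkm stood at 1.30 in MFP 48 h array 1 and -0.81 in array 2, and the skeletal muscle markers had medians of 4.34 and 0.12 in these arrays. Without MFP 48 h array 2 Pfkm was called at 1.32 versus MPA (adjusted p = 0.0276), and without MFP 48 h array 1 its slope was called at -0.36 (adjusted p = 0.0263). The part of muscle in these values was not tested. The platelet-type Pfkp stood at -1.63 and -0.86 in MFP 48 h arrays, against -0.64 and 0.44 in MPA arrays, a difference of -1.15 ± 0.42 (adjusted p = 0.105). Another probe set of Pfkp had a called slope of -0.25 ± 0.06 (adjusted p = 0.0311 over probe sets). Lactate dehydrogenase A, Ldha, had a difference of -0.58 ± 0.23 (adjusted p = 0.125) and Pgam1, a phosphoglycerate mutase, -0.58 ± 0.23 (adjusted p = 0.135). The pyruvate kinase Pkm had -0.22 ± 0.20 (adjusted p = 0.542) and the aldolase Aldoa -0.45 ± 0.27 (adjusted p = 0.332). For Hk1 and Hk2, the hexokinases that begin the pathway, the differences were 0.07 ± 0.27 (adjusted p = 0.909) and 0.02 ± 0.40 (adjusted p = 0.985). Over the 12 enzymes the differences thus ranged from 0.26 for Pfkm to -1.66 for Aldoc, with Pfkl, Pfkp, Tpi1 and Pgk1 also below -1.

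Gapdh, the enzyme between Tpi1 and Pgk1, was measured on control probe sets only and was not tested. Its probe set near the 3′ end stood at -0.14 and 0.00 in MFP 48 h arrays, against -0.18 and 0.16 in MPA arrays. Its probe set near the 5′ end stood at -0.62 and -0.36, against -0.35 and 0.28. The 3′ minus 5′ difference of Gapdh was 0.48 and 0.37 in MFP 48 h arrays and 0.16 and -0.12 in MPA arrays, and that of Actb was 0.47 and 0.59 against -0.07 and 0.05. Over the earlier MFP times the difference of Gapdh was 0.10 and -0.06 (6 h), 0.28 and 0.28 (12 h), and 0.42 and 0.55 (24 h), and that of Actb was 0.20 and 0.13 (6 h), 0.34 and 0.36 (12 h), and 0.35 and 0.50 (24 h). The signal of these transcripts thus leaned more to the 3′ end at 12, 24 and 48 h than at 6 h or in MPA arrays. Per the labels' protocols the RNA was taken from fixed tissue in paraffin blocks. The part of RNA quality in the falls and in the trend was not tested.

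Among the regulators of flux, Pdk1 had the largest fall of the 36 genes at 48 h versus MPA, on the probe sets that stood for the genes. Pdk1 is a pyruvate dehydrogenase kinase, which keeps pyruvate out of the citric acid cycle. It stood at -1.93 and -2.07 in MFP 48 h arrays, against -0.22 and -0.92 in no MPA arrays and -0.09 and 0.09 in MPA arrays. It was at 0.15 and 0.62 in the 6 h arrays, 0.33 and 0.39 in the 12 h arrays, and -0.60 and -1.09 in the 24 h arrays. The early MFP arrays all lay above both MPA arrays and the 48 h arrays below all others. The difference versus MPA was -2.00 ± 0.28, a 4.0-fold fall (adjusted p = 0.00375), and the slope -0.84 ± 0.12 (adjusted p = 0.00299). All 4 probe sets had a called negative slope, and 3 were called at 48 h.

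Pfkfb3 and Pfkfb4 make fructose 2,6-bisphosphate, the activator of phosphofructokinase, and neither was called. Pfkfb4 stood at 1.07 and 0.47 in MFP 48 h arrays, against 0.13 and -0.14 in MPA arrays, a difference of 0.78 ± 0.28 (adjusted p = 0.0976). Pfkfb3 had 0.34 ± 0.46 (adjusted p = 0.704), and its MPA arrays stood at -0.97 and 0.57. The other probe set of Pfkfb3 went the other way, at -0.46 ± 0.29 (adjusted p = 0.37 over probe sets). Among the glycogen enzymes, the synthase Gys1 had 0.34 ± 0.30 (adjusted p = 0.52) and the branching enzyme Gbe1 0.42 ± 0.28 (adjusted p = 0.384). The other probe set of Gys1 also went the other way, at -0.29 ± 0.27 (adjusted p = 0.57 over probe sets).

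Of the transporters of glucose and lactate, Slc16a3 rose over the MFP times and Slc2a1 was not called. Slc16a3, the lactate exporter MCT4, stood at 1.02 and 1.02 in MFP 48 h arrays, against -0.58 and -1.39 in no MPA arrays and -0.94 and 0.56 in MPA arrays. It was at -0.96 and -0.66 in the 6 h arrays, -1.24 and -0.13 in the 12 h arrays, and 0.06 and -0.16 in the 24 h arrays. The 48 h arrays were the highest of all 12. The slope was 0.61 ± 0.12 (adjusted p = 0.0129), and it was 0.56 without MFP 48 h array 1 (adjusted p = 0.0596) and 0.56 without MFP 48 h array 2 (adjusted p = 0.059). Versus MPA the difference was 1.20 ± 0.49 (adjusted p = 0.142). Macrophages express Slc16a3 too, and the median of the 14 macrophage markers was 1.95 and 1.89 in MFP 48 h arrays, against -0.78 and -0.47 in no MPA arrays and -0.95 and 0.57 in MPA arrays. Their part in the rise was not tested. Slc2a1, the glucose transporter GLUT1, stood at -1.09 and -0.46 in MFP 48 h arrays, against -0.72 and 0.48 in MPA arrays, and was not called (-0.66 ± 0.48, adjusted p = 0.434).

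**Figure D3:**
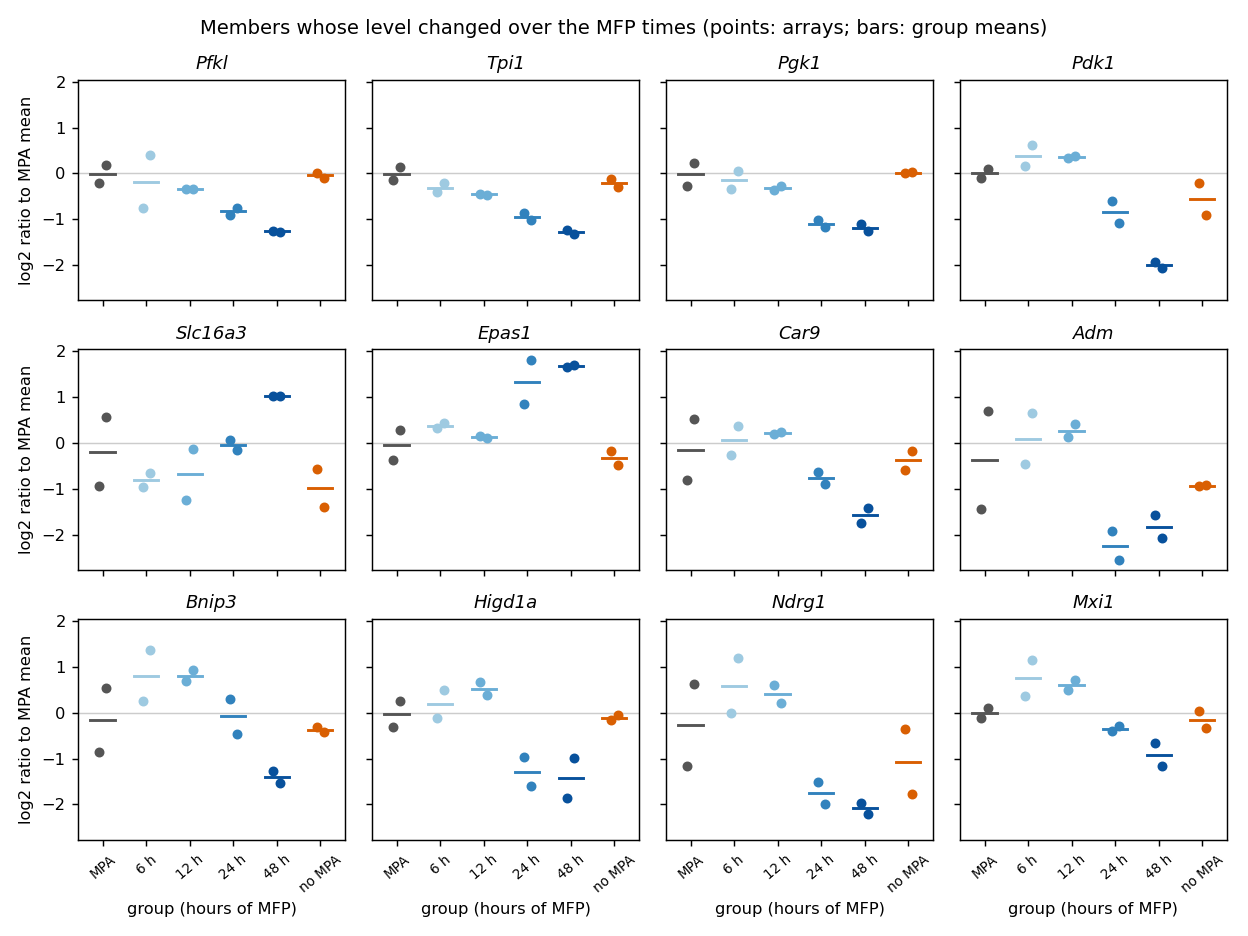
Log2 ratio to the MPA mean (vertical axis) of the 12 genes with a called slope over the MFP times, by group (horizontal axis), with a point for each array and a bar for each group mean. Tpi1 and Pgk1 go down over the MFP times, Bnip3 and Mxi1 are above 0 at 6 and 12 h and below it at 48 h, and Epas1 and Slc16a3 go up.

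Of the HIF alpha subunit genes, Epas1 rose. Epas1, which encodes the HIF-2 alpha subunit and is expressed strongly in endothelium, stood at 1.66 and 1.70 in MFP 48 h arrays, against -0.16 and -0.48 in no MPA arrays and -0.37 and 0.29 in MPA arrays. It was at 0.33 and 0.44 in the 6 h arrays, 0.15 and 0.11 in the 12 h arrays, and 0.85 and 1.82 in the 24 h arrays. All 24 and 48 h arrays lay above all others. The difference at 48 h versus MPA was 1.72 ± 0.32, a 3.28-fold rise (adjusted p = 0.0103), and without MPA array 1 it was 1.38 (adjusted p = 0.0724). The slope was 0.51 ± 0.12 (adjusted p = 0.0306), and it was not called without MFP 6 h array 1 (adjusted p = 0.0636), MFP 6 h array 2 (0.053), MFP 48 h array 1 (0.0943) or MFP 48 h array 2 (0.0968). Both probe sets of Epas1 were called in both tests. The median of the 12 endothelial markers was 0.55 and 1.03 in MFP 48 h arrays, against -0.15 and -0.46 in no MPA arrays and -0.32 and 0.26 in MPA arrays, and their part was not tested.

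For Hif1a, the best known HIF subunit gene, the direction depended on the probe set. The probe set with the largest SD stood at -0.61 and -0.55 in MFP 48 h arrays, against -0.46 and 0.35 in MPA arrays (-0.52 ± 0.46, adjusted p = 0.535). A second one had a difference of -0.63 ± 0.31 (adjusted p = 0.231 over probe sets). The other 2 rose, by 1.10 ± 0.24 (adjusted p = 0.0194) and 0.75 ± 0.18 (adjusted p = 0.0278). Their slopes were 0.34 ± 0.07 (adjusted p = 0.0204) and 0.38 ± 0.07 (adjusted p = 0.00873), against -0.31 ± 0.16 (adjusted p = 0.274) and -0.27 ± 0.11 (adjusted p = 0.17) for the first pair. No single direction can be given for Hif1a from these arrays.

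**Figure D4:**
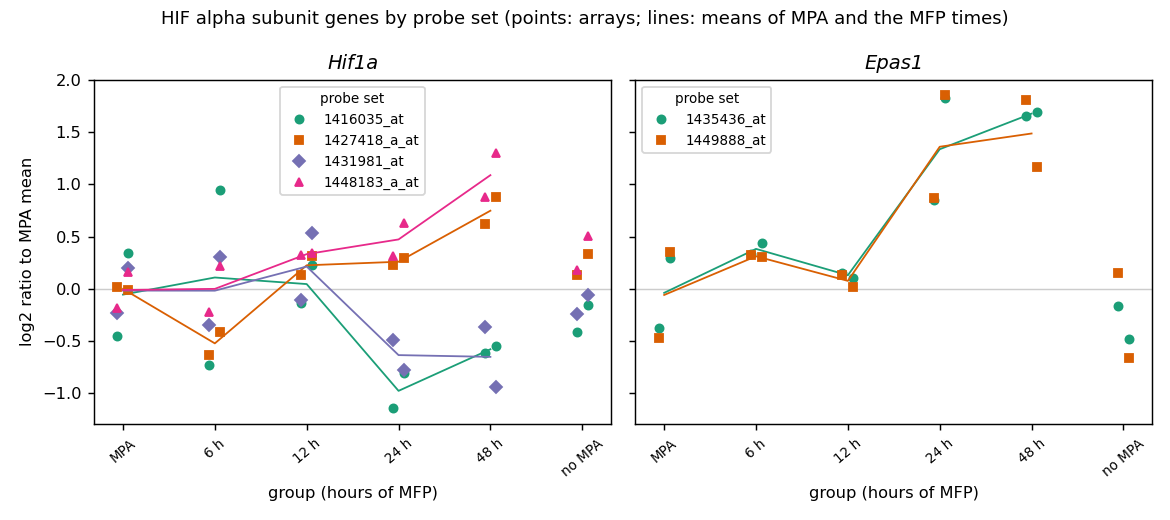
Log2 ratio to the MPA mean (vertical axis) of each probe set of Hif1a (left panel) and Epas1 (right panel) by group, with a point for each array and a line through the means of MPA and the MFP times. The 4 Hif1a probe sets part after 12 h, 2 upward and 2 downward, and both Epas1 probe sets rise.

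The oxygen sensors Egln1 and Egln3, prolyl hydroxylases that mark HIF alpha for degradation, were not called. Their differences at 48 h versus MPA were -0.34 ± 0.27 (adjusted p = 0.479) and -0.41 ± 0.35 (adjusted p = 0.514).

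Car9, a cell-surface carbonic anhydrase widely used as a tissue marker of hypoxia, stood at -1.74 and -1.42 in MFP 48 h arrays, against -0.60 and -0.17 in no MPA arrays and -0.82 and 0.52 in MPA arrays. It was at -0.26 and 0.38 in the 6 h arrays, 0.21 and 0.25 in the 12 h arrays, and -0.63 and -0.90 in the 24 h arrays. The 48 h arrays were the lowest of the 12, and the MPA arrays lay on both sides of 0. The slope was -0.59 ± 0.11 (adjusted p = 0.0112), and without MFP 48 h array 1 it was -0.51 (adjusted p = 0.0538). The difference versus MPA was -1.43 ± 0.39 (adjusted p = 0.0407). It was -0.76 without MPA array 2 (adjusted p = 0.191), and it was not called without MFP 48 h array 1 (0.167) or MFP 48 h array 2 (0.0876), or with array weights (0.0535). Car12, another membrane carbonic anhydrase, stood at -1.39 and -0.67 in MFP 48 h arrays, against -0.07 and 0.07 in MPA arrays (-1.03 ± 0.55, adjusted p = 0.265).

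Of the secreted factors, Adm had a called slope. Adm, adrenomedullin, is a peptide that widens vessels, and it stood at -1.58 and -2.08 in MFP 48 h arrays, against -0.93 and -0.93 in no MPA arrays and -1.44 and 0.71 in MPA arrays. It was at -0.45 and 0.65 in the 6 h arrays, 0.12 and 0.41 in the 12 h arrays, and -1.92 and -2.56 in the 24 h arrays. The 24 and 48 h arrays were the lowest, close above them came MPA array 1. The slope was -0.83 ± 0.22 (adjusted p = 0.0394), and it was not called in 6 of 8 runs without 1 array. The highest adjusted p was 0.14, without MFP 6 h array 2, and the others were 0.0658 and 0.0543 without MFP 12 h array 1 or 2, 0.0581 without MFP 24 h array 1, and 0.0592 and 0.102 without MFP 48 h array 1 or 2. Both probe sets of Adm had a called slope. Vegfa, the angiogenic growth factor, stood at -0.995 and -0.96 in MFP 48 h arrays, against -0.53 and 0.39 in MPA arrays. The Vegfa groups did not overlap, and the difference of -0.91 ± 0.40 was not called (adjusted p = 0.173).

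Both mitochondrial proteins had called slopes. Bnip3, which marks mitochondria for removal, stood at -1.26 and -1.53 in MFP 48 h arrays, against -0.31 and -0.43 in no MPA arrays and -0.86 and 0.54 in MPA arrays. It was at 0.25 and 1.38 in the 6 h arrays, 0.70 and 0.93 in the 12 h arrays, and 0.30 and -0.46 in the 24 h arrays. The 48 h arrays lay below all others. The slope was -0.75 ± 0.15 (adjusted p = 0.0134), and it was not called without MFP 6 h array 2 (0.0607), MFP 48 h array 1 (0.0586) or MFP 48 h array 2 (0.0623). Versus MPA the difference was -1.23 ± 0.47 (adjusted p = 0.12).

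Higd1a, a hypoxia-induced protein of the inner mitochondrial membrane, stood at -1.86 and -0.99 in MFP 48 h arrays, against -0.15 and -0.06 in no MPA arrays and -0.32 and 0.26 in MPA arrays. It was at -0.11 and 0.50 in the 6 h arrays, 0.67 and 0.39 in the 12 h arrays, and -0.97 and -1.60 in the 24 h arrays. The 24 and 48 h arrays overlapped and lay below all others. The difference at 48 h versus MPA was -1.39 ± 0.35 (adjusted p = 0.0305), with all 3 probe sets called. It was -0.96 without MFP 48 h array 1 (adjusted p = 0.172), and it was not called without MPA array 1 (0.0652) or MPA array 2 (0.142). The slope was -0.67 ± 0.17 (adjusted p = 0.0338), and it was not called without MFP 6 h array 2 (0.103), MFP 12 h array 2 (0.0541), MFP 24 h array 1 (0.0536) or MFP 48 h array 1 (0.129).

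Ndrg1, a stress-induced gene named for its regulation by N-myc, had the steepest slope of the 36 genes. It stood at -1.96 and -2.22 in MFP 48 h arrays, against -0.35 and -1.78 in no MPA arrays and -1.17 and 0.64 in MPA arrays. It was at -0.01 and 1.19 in the 6 h arrays, 0.60 and 0.20 in the 12 h arrays, and -1.51 and -2.00 in the 24 h arrays. The 24 h arrays overlapped no MPA array 2. The slope was -1.02 ± 0.17, a 2.03-fold fall per doubling of time (adjusted p = 0.00598), and all 5 probe sets had a called negative slope. Versus MPA, with its wide spread, the difference at 48 h was -1.82 ± 0.62 (adjusted p = 0.0831). Of the 5 probe sets 1 was called there, at -2.29 ± 0.41 (adjusted p = 0.0099 over probe sets).

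Mxi1, an antagonist of Myc, stood at -0.65 and -1.17 in MFP 48 h arrays, against 0.04 and -0.34 in no MPA arrays and -0.11 and 0.10 in MPA arrays. It was at 0.37 and 1.16 in the 6 h arrays, 0.50 and 0.71 in the 12 h arrays, and -0.40 and -0.29 in the 24 h arrays. All 6 and 12 h arrays lay above all others, and the 48 h arrays below all others. The slope was -0.60 ± 0.10 (adjusted p = 0.00618), and the difference at 48 h versus MPA -0.91 ± 0.29 (adjusted p = 0.0688). The other probe set of Mxi1 was called there, at -0.69 ± 0.20 (adjusted p = 0.0499 over probe sets). Kdm3a, a histone demethylase, took a like course, with 1.06 and 0.68 in the 12 h arrays and -0.76 and -0.57 in the 48 h arrays. Its slope was -0.48 ± 0.13 (adjusted p = 0.051), and its difference at 12 h versus MPA 0.87 ± 0.23 (adjusted p = 0.0617). With the mean of all probe sets of a gene in place of 1, Kdm3a was the only member called at 12 h versus MPA. Kdm3a has 1 probe set, so that its own values were the same in both settings. Ankrd37, an ankyrin repeat protein, had a slope of -0.45 ± 0.13 (adjusted p = 0.0563) and stood at -1.92 and -0.56 in MFP 48 h arrays, against 0.03 and -0.03 in MPA arrays.

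The collagen prolyl hydroxylases P4ha1 and P4ha2, which stabilise collagen, differed from the falling genes. P4ha1 was lowest at 24 h, with -1.06 and -0.83 in MFP 24 h arrays, against -0.27 and 0.23 in MPA arrays. It was at -0.23 and 0.10 in the 6 h arrays, -0.13 and -0.15 in the 12 h arrays, -0.12 and -0.23 in the 48 h arrays, and 0.20 and -0.14 in no MPA arrays. Its 24 h arrays lay below all others. The difference at 24 h versus MPA was -0.93 ± 0.23 (adjusted p = 0.0371). It was not called without MPA array 2 (0.17), MFP 24 h array 1 (0.126) or MFP 24 h array 2 (0.0928). It was also not called with the mean of its probe sets (-0.71, adjusted p = 0.0909), median centring (0.0522) or array weights (0.0715). At 48 h the differences of P4ha1 and P4ha2 were -0.15 ± 0.23 (adjusted p = 0.752) and 0.17 ± 0.43 (adjusted p = 0.855).

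At 24 h versus MPA the calls of Pgk1 (-1.08 ± 0.23, adjusted p = 0.0172), Tpi1 (-0.94 ± 0.19, adjusted p = 0.0165) and Epas1 (1.37 ± 0.32, adjusted p = 0.0267) were each lost without some single arrays, with the direction kept. Without MFP 24 h array 2 no gene of the 36 was called, at -1.001 for Pgk1 (adjusted p = 0.0956), -0.87 for Tpi1 (adjusted p = 0.0932) and 0.89 for Epas1 (adjusted p = 0.155). Without MPA array 2 the difference was -0.83 for Pgk1 (adjusted p = 0.0807) and -0.80 for Tpi1 (adjusted p = 0.0734), and without MPA array 1 it was 1.04 for Epas1 (adjusted p = 0.162). With the mean of its probe sets Tpi1 was at -0.65 (adjusted p = 0.0685).

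If the no MPA tumours lacked MPA as labelled, the comparison of MFP 48 h with them asks what MFP adds to the loss of the progestin. In it 9 of the 36 genes were called, against 12.5% of all genes. Higd1a, Kdm3a, Pdk1, Pfkl, Pgk1, Stc2 and Tpi1 fell, 7 genes against 5.03% of all genes, and Epas1 and Slc16a3 rose, against 7.49%. The median difference was -0.63 over the 36 genes and -0.04 over all genes. Pdk1 fell by 1.44 ± 0.28 (adjusted p = 0.00954), Pgk1 fell by 1.20 ± 0.23 (adjusted p = 0.0084) and Tpi1 fell by 1.08 ± 0.19 (adjusted p = 0.00727). Epas1 rose by 2.00 ± 0.32 (adjusted p = 0.00459) and Slc16a3 rose by 2.00 ± 0.49 (adjusted p = 0.0249). Higd1a fell by 1.32 ± 0.35 (adjusted p = 0.0363), Pfkl fell by 1.22 ± 0.32 (adjusted p = 0.0337) and Kdm3a fell by 0.86 ± 0.23 (adjusted p = 0.0334). With the mean of its probe sets Pfkl was at -0.58 and not called (adjusted p = 0.102).

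Epas1 and Stc2 were called in each of 4 runs without 1 array of that comparison. Without no MPA array 1 only these 2 genes were called, with adjusted p of 0.0761 for Pdk1, 0.0537 for Pgk1 and 0.0576 for Tpi1. Without no MPA array 2 the count was 4, and Pgk1 had an adjusted p of 0.0501. Without MFP 48 h array 1 it was 5, and without MFP 48 h array 2 it was 9, with Aldoc, Ankrd37 and Pfkm in place of Slc16a3, Pfkl and Kdm3a. Slc16a3, Pfkl and Kdm3a were called in none of these runs and Higd1a in 1, with highest adjusted p of 0.159, 0.153, 0.161 and 0.215. After quantile normalization Stc2 alone was called.

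Stc2, stanniocalcin 2, a secreted glycoprotein, set the no MPA tumours apart. It stood at -1.37 and -0.81 in MFP 48 h arrays, against 1.10 and 2.24 in no MPA arrays and -0.42 and 0.33 in MPA arrays. It was at -1.82 and -1.91 in the 6 h arrays, -1.13 and -1.75 in the 12 h arrays, and -0.93 and -1.05 in the 24 h arrays. All 8 MFP arrays lay below both MPA arrays, and both no MPA arrays above them. The difference of MFP 48 h minus no MPA was -2.76 ± 0.39, a 6.76-fold fall (adjusted p = 0.00311). The 3 probe sets of Stc2 did not share a direction at 48 h versus MPA, where they ranged from -1.04 to 0.24.

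Between no MPA and MPA tumours limma called none of the 36 genes and 0% of all genes, with an unadjusted p under 0.05 for 1198 of all genes and for 1 of the 36, Stc2 (1.72 ± 0.39, adjusted p = 0.41). The median difference was -0.15 over the 36 genes, 0.02 over the enzymes and 0.01 over all genes.

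**Figure D5:**
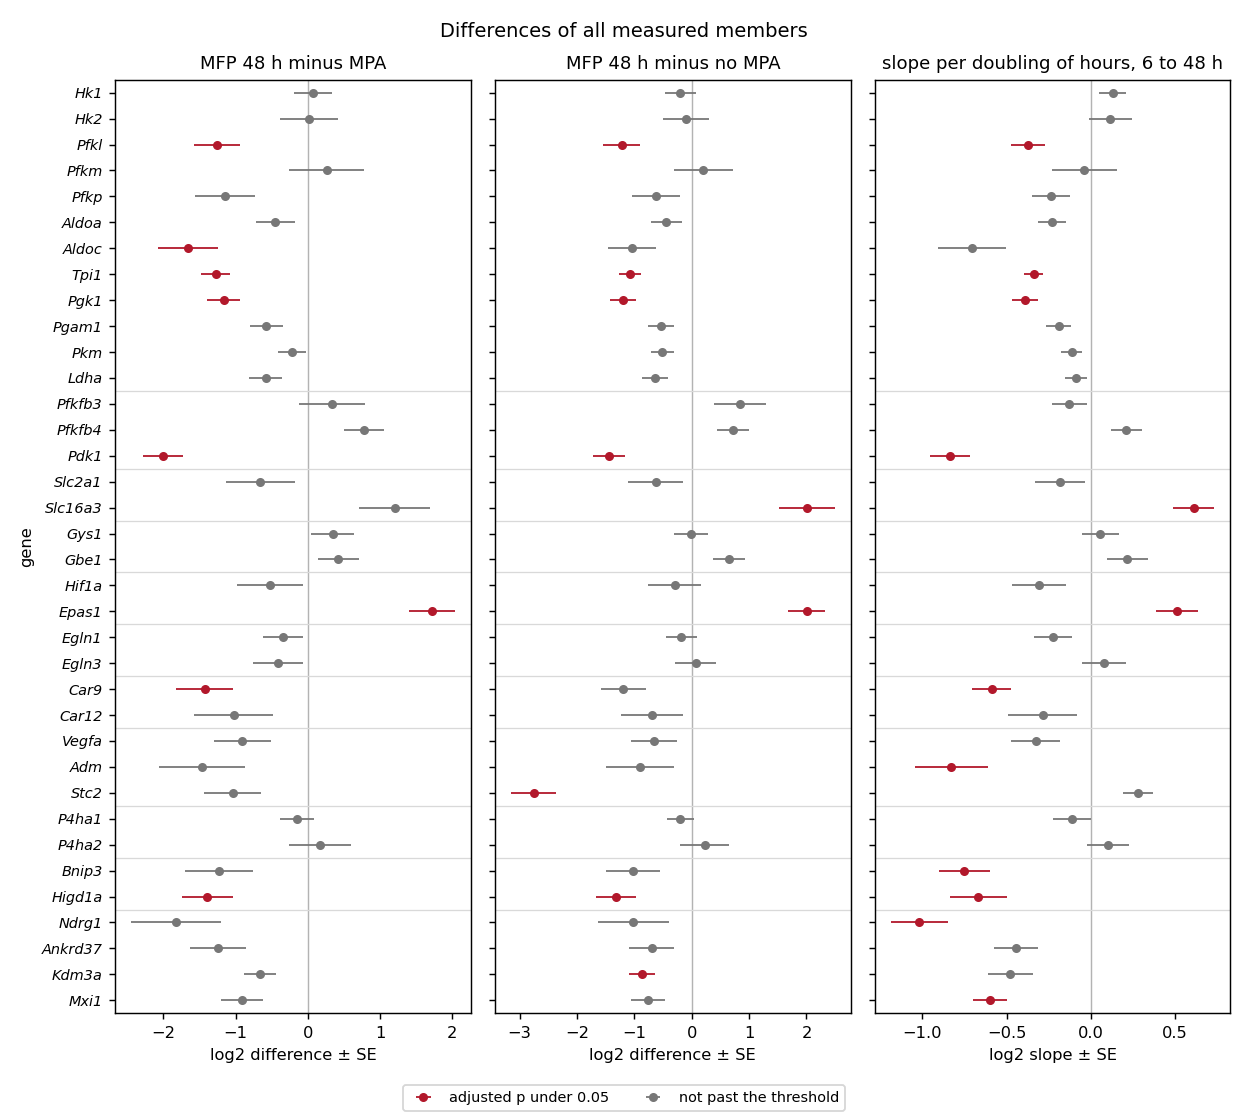
Log2 difference of MFP 48 h minus MPA (left), MFP 48 h minus no MPA (middle) and slope per doubling of the MFP hours (right) of the 36 genes (rows, ordered by role), with SE bars and calls in red. Pdk1, Tpi1, Pgk1, Pfkl and Higd1a are called below 0 in all 3 panels and Epas1 above 0 in all 3.

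Both MFP 48 h arrays were the lowest of the 12 in 7 of the 36 genes, against 4.88% of all genes. These were Pfkl, Aldoc, Tpi1, Pdk1, Car9, Bnip3 and Mxi1. They were the highest in 1, Slc16a3, against 7.62% of all genes. Of the 23 genes with more than 1 probe set, 16 had all of them on 1 side of 0 at 48 h versus MPA.

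Other glycolysis genes and transporters showed no common fall at 48 h versus MPA. Of 12 measured other glycolysis genes and isozymes 3 rose and none fell, with a median of 0.38. Those 3 were Hk3 (1.57 ± 0.30, adjusted p = 0.0114), a hexokinase of myeloid cells, Bpgm (2.01 ± 0.49, adjusted p = 0.027), which is best known from red cells, and the muscle mutase Pgam2 (1.61 ± 0.46, adjusted p = 0.0482). Pgam2 stood at 2.49 in MFP 48 h array 1, the array with high muscle markers, and 0.70 in array 2. None of 9 other glucose and monocarboxylate transporters was called, with a median of 0.22. An unadjusted p under 0.05 was found for 1 of them, against 4918 of 18193 genes.

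Of 24 other hypoxia-inducible genes 5 rose (20.8%) and 3 fell (12.5%), with a median of 0.19. Among all genes 6.47% rose and 6.02% fell. Ddit4, a stress-induced inhibitor of mTOR, fell by 1.94 ± 0.25 (adjusted p = 0.00329), and Ak4, a mitochondrial adenylate kinase, fell by 2.91 ± 0.52 (adjusted p = 0.00897). Pdgfb, a growth factor for pericytes, rose by 1.19 ± 0.21 (adjusted p = 0.00851). Cited2, Hmox1, Lox and Plod1 were also called with a rise, and Mif with a fall. Of 12 HIF pathway regulators 3 were called down and none up, with a median of -0.46, 8 genes below 0 and 4 above. Hif3a, an alpha subunit gene, stood at -2.97 and -3.00 in MFP 48 h arrays, against -0.05 and 0.00 in no MPA arrays and -0.14 and 0.13 in MPA arrays (-2.98 ± 0.31, adjusted p = 0.00227). Vhl, the ubiquitin ligase subunit that binds HIF alpha, fell by 1.17 ± 0.24 (adjusted p = 0.014), and Egln2, another prolyl hydroxylase, fell by 0.85 ± 0.19 (adjusted p = 0.0189).

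In each list of a pathway linked to glycolysis a single gene was called at 48 h versus MPA. Of 10 genes of pyruvate dehydrogenase and its kinases Pdk3 alone was called, with a fall (-1.15 ± 0.31, adjusted p = 0.0405). The median of that list was -0.38, with 9 genes below 0 and 1 above. Of 14 citric acid cycle genes Idh3a alone was called, with a fall (-1.39 ± 0.35, adjusted p = 0.0288), and in no MPA arrays it stood at -1.45 and -1.47. The median of the citric acid cycle genes was -0.34, with 10 below 0 and 4 above. Of 6 pentose phosphate genes Rpe alone rose (1.10 ± 0.31, adjusted p = 0.0446), with a median of -0.17. Of 16 genes of glycogen and gluconeogenesis Gyg, the primer of glycogen synthesis, alone rose (1.94 ± 0.55, adjusted p = 0.0445), with a median of 0.16. The shares of called genes lay on both sides of the 12.5% called among all genes, of which 9091 of 18193 lay below 0.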

How the data were processed

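RNA of C4-HD tumours was measured on 12 arrays, 2 for each of 6 groups taken from the labels, which give no replicate numbers, so that the arrays were numbered in order. Per the labels' protocols RNA was taken from fixed tissue in paraffin blocks and 200 ng was labelled. The authors deposited log2 values made with GCRMA per the submitters' processing notes (version not given in the sources used here). Tested on the file, they are log2 ratios to the MPA average, taken before the log, for 45099 of 45101 probe sets, within 0.0001. This keeps differences between arrays and loses levels, so no filter on dim probe sets was possible.

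Probe sets with 1 symbol in the platform annotation (34945) were used, those with several (932), none (9160) and controls (64) were not. The probe set with the largest SD, which favours larger changes, stood for a gene. Differences were tested with limma 3.58.1 in R 4.3.3, with 1 mean per group over 12 arrays, and the trend as a slope on log2 hours over 8 MFP arrays, with Benjamini-Hochberg adjustment over 18193 genes at 0.05. The fit was tested on simulated data. Alternatives were the probe set rule, scaling, weights, robust moderation, the arrays of a contrast alone, each array left out and, added after seeing the data, 2 changes to the trend. All listed genes are named, and values are given for up to 3 called genes of each pathway list, those with the smallest p. The genes and lists were chosen with earlier results of these data known.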

Additional observations from a re-analysis of the deposited data

Results flagged for a closer look

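The following differences between MFP 48 h and no MPA tumours, which both lacked the MPA pellet by their labels, were past the threshold. On the log2 scale MFP 48 h minus no MPA was -2.76 for Stc2, -1.44 for Pdk1, -1.32 for Higd1a, -1.22 for Pfkl, -1.20 for Pgk1, -1.08 for Tpi1, -0.86 for Kdm3a, 2.00 for Epas1 and 2.00 for Slc16a3.

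The following genes differed between the times of MFP by the slope on log2 of the hours. The slope per doubling of time was -1.02 for Ndrg1, -0.84 for Pdk1, -0.83 for Adm, -0.75 for Bnip3, -0.67 for Higd1a, -0.60 for Mxi1, -0.59 for Car9, -0.39 for Pgk1, -0.37 for Pfkl, -0.34 for Tpi1, 0.51 for Epas1 and 0.61 for Slc16a3. No test for an array far from the others was run within the groups of 2 arrays.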

How the results depend on the processing

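No paired analysis was possible because the labels give no replicate numbers. The number of the 36 genes called was 8 at 48 h versus MPA and 4 at 24 h, and after quantile normalization both were 0. That step stretches the MPA arrays, whose values have SDs of 0.255 and 0.267 over the probe sets, against 0.39 to 0.741 in the other arrays. The MPA arrays are narrow because the values are ratios to their own average. With the arrays of the contrast alone, which leaves fewer samples for the spread, both were 0 again. All genes called at 48 h versus MPA were 2272 as reported, 3 after quantile normalization and 43 with those arrays alone. With the mean of all probe sets of a gene, 2 were called at 24 h and 1 at 12 h, against 0 as reported. At 48 h versus no MPA the count was 9 as reported and 1 after quantile normalization. Leaving out each array in turn gave 4 to 7 genes at 48 h versus MPA, 0 to 4 at 24 h, 2 to 9 at 48 h versus no MPA and 6 to 13 in the trend, with 6 without MFP 6 h array 2. It gave 0 at 12 h, at 6 h and for no MPA versus MPA. In these runs a lone array was assumed to vary like the other groups, and each called gene kept its direction. Hif1a reversed with every probe set tested on its own, to 1.10 at 48 h versus MPA and 0.38 in the trend. Of 2 alternatives chosen after seeing the data, the step of 24 and 48 h against 6 and 12 h and the trend without both 24 h arrays each called 11 genes, 10 of them among the 12 of the trend. How far a signal lay above background is unknown, since the values are ratios.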

Other observations

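At 24 h some genes of the same pathways moved with markers of liver. In MFP 24 h tumours the array medians of the 14 hepatocyte markers were 3.51 and 4.06, against 0.87 and -2.55 in MPA arrays. Versus MPA 5 of 16 genes of glycogen and gluconeogenesis rose, namely Fbp1, G6pc, Gys2, Pck1 and Pygl (31.2%, against 4.55% of all genes). Of 9 other glucose and monocarboxylate transporters Mpc1 and the glucose transporter Slc2a2 rose. Of 12 other glycolysis genes and isozymes the liver pyruvate kinase Pklr alone rose. Hepatocytes express the first 5 genes, Slc2a2 and Pklr. These genes were named after their values were seen, and the part of liver tissue in the values was not tested. The median of the 11 markers of exocrine pancreas was 5.73 and 4.60 in the 6 h arrays, 0.15 and 1.29 in the 12 h arrays, 0.83 and 6.45 in the 24 h arrays, and 4.66 and 5.30 in the 48 h arrays, so that arrays of 1 group could differ.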
